A study of Mus musculus with 2 samples.

Results

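The 33 genes described here carry carbon into, around and out of the tricarboxylic acid (TCA) cycle: the carriers and the dehydrogenase that bring in pyruvate, the enzymes of the cycle, the enzymes that feed glutamine into it, and the malate-aspartate shuttle. They were listed by gene symbol from known function, with earlier results of these data known but no measured value in the rule, and all 33 were found among the 54532 gene identifiers of the deposited count table. The table holds 2 bulk RNA-seq libraries of primary CD8+ T cells from the spleens of wild-type mice, which the labels call ND, an abbreviation they do not spell out. The cells of one library were kept for 8 h in RPMI 1640 and those of the other for 8 h in RPMI 1640 lacking methionine, an essential amino acid. The comparison asks how the transcripts of this pathway differed between the 2 media. The labels do not say how many animals gave the cells, whether the 2 cultures shared donor animals, or whether the cells were stimulated.

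Pyruvate from glycolysis enters the mitochondrial matrix through a carrier made of MPC1 and MPC2, and the pyruvate dehydrogenase complex turns it into acetyl-CoA. Citrate synthase joins acetyl-CoA to oxaloacetate, and the turns of the cycle that follow release carbon dioxide and load NADH and FADH2 for respiration. Side reactions refill the cycle or draw from it, among them pyruvate carboxylase, phosphoenolpyruvate carboxykinase, the malic enzymes, and glutaminase followed by glutamate dehydrogenase or transaminases. Activated T cells are known for strong use of glutamine and for a cycle that also supplies building blocks for growth, such as citrate for lipids and aspartate for nucleotides.

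The complete-medium library held 14646527 counts and the methionine-free library 19647681. With 1 library per medium, nothing below has a replicate check, no p-value is given, and a gene is called higher or lower by size alone. A ratio is that of counts scaled by library size with the TMM method, a level is in counts per 1000000 scaled counts (CPM), and the range in brackets is a 95% interval for counting error only, which leaves out the spread between cultures or animals. Reads were taken as independent, although no molecular identifiers are named. CD8 T cell markers were present in both libraries: the 8 listed markers summed to 2113 CPM with methionine and 1912 CPM without. Markers of other spleen cells were low: in complete medium and without methionine, the 6 B cell markers summed to 11.6 and 7.09 CPM, the 4 NK cell markers to 0.477 and 0.153 CPM, the 4 erythroid markers to 1.43 and 1.84 CPM and the 4 stromal markers to 37.3 and 24.4 CPM. Klrb1c was at 0 in both, and Cd4 had 9 and 11 counts. A count of 0 allows a level of up to 3 counts, 0.204 CPM in complete medium and 0.153 CPM in the other library. The 8 myeloid and dendritic cell markers summed to 57.2 and 72.7 CPM, of which Cst3 made up 49.0 and 58.5 CPM. The 12 proliferation genes summed to 2031 CPM with methionine and 114 CPM without it, and all 12 were at least 2-fold lower. Their part in the differences below was not tested, and in bulk RNA fewer cells of a kind and less RNA per cell cannot be told apart.

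The transcripts of the pathway lay on the lower side without methionine, and the size differed sharply between members. Of the 33 members, 10 were lower by 1.5-fold or more, and no member was higher by that much; of all 13041 genes averaging 10 counts or more, 18.0% passed the same size on the lower side and 15.7% on the higher side. At 2-fold, 7 members were lower and none higher, beside 9.29% and 5.8% of all genes. The median log2 difference, methionine-free minus complete medium, was -0.39 over the members and 0.04 over all genes. Without the 8 members that share exon bases with another counted gene, 7 of 25 were at least 1.5-fold lower and the median was -0.16. All 33 members met the minimum of 10 counts on average, from 16 for Me1 to 5412 for Mdh2. In order of size, the 10 lower members were Gls2, Me1, Slc25a10, Pcx, Idh2, Pck2, Fh1, Mdh1, Me2 and Pdhx. The largest value on the higher side was that of Mpc1, at a ratio of 1.499, just inside the threshold, and just inside on the other side were Idh3a, Slc25a11 and Suclg1, each 1.49-fold lower. With upper-quartile scaling Mpc1 crossed the threshold, and with library totals alone 11 members were lower. Taken as a sum, the members went from 3999 to 3256 CPM, a ratio of 0.814.

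**Figure D1:**
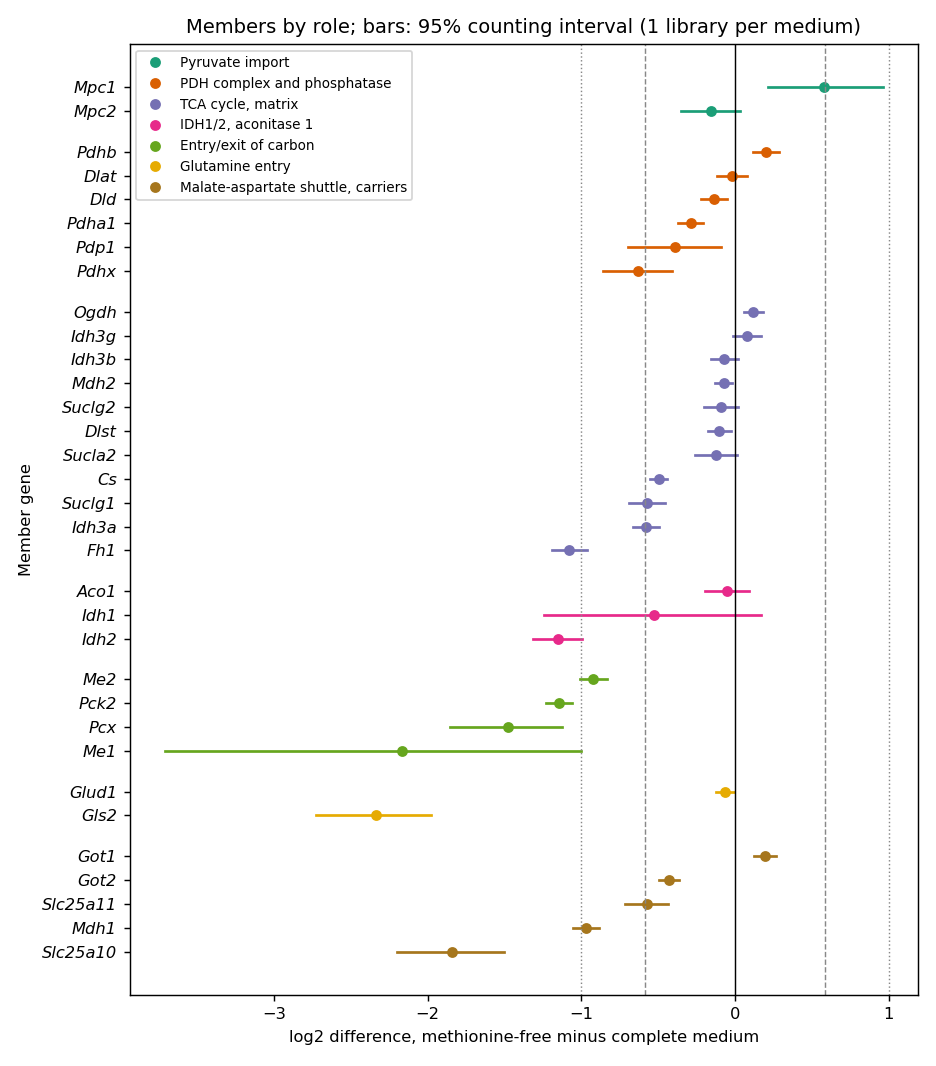
Log2 difference of each of the 33 members (x axis, methionine-free minus complete medium), grouped and coloured by role, with lines for the 95% counting interval; dashed lines mark 1.5-fold and dotted lines 2-fold. All 4 genes of carbon entry and exit lie beyond 1.5-fold on the lower side, while only Fh1 of the 11 matrix TCA enzymes does.

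The lower members were spread unevenly over the roles. Of the 11 TCA cycle enzymes of the matrix, 1 was at least 1.5-fold lower, 9.09% beside 18.0% of all genes. Their median log2 difference was -0.10. Of the 4 enzymes at the junction of pyruvate, malate and oxaloacetate, all 4 were, with a median of -1.31. The same held for 1 of 6 genes of the pyruvate dehydrogenase group, 16.7%, which is near the share of all genes. It also held for 1 of 3 in the group of NADP-linked isocitrate dehydrogenases and cytosolic aconitase, 1 of 2 glutamine entry genes and 2 of 5 shuttle and carrier genes. Neither gene of pyruvate import was past 1.5-fold. The roles hold few genes each, and the difference between them was not tested.

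Expressed per kilobase of exon, so that genes can be compared with each other, the members spanned from 0.442 CPM per kilobase for Me1 to 91.2 for Mdh2 in complete medium. Mdh2 was the highest member in both libraries. Mdh1 ranked 2 in complete medium and 8 without methionine, going from 76.8 to 39.2 CPM per kilobase, whereas Got1 moved from rank 3 to rank 2, at 68.9 and 78.9. Glud1, Cs, Got2 and Ogdh made up the rest of the first 7 places in complete medium, and these 4 stayed within the first 7 without methionine. Of the 9 members under 7 CPM per kilobase in complete medium, Gls2, Slc25a10, Pcx, Me1 and Pdhx were among the lower genes, and the other 5 lower genes were above 20 CPM per kilobase. Exon lengths came from GENCODE and cover every annotated exon of a gene, so the length-scaled levels are approximate.

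**Figure D2:**
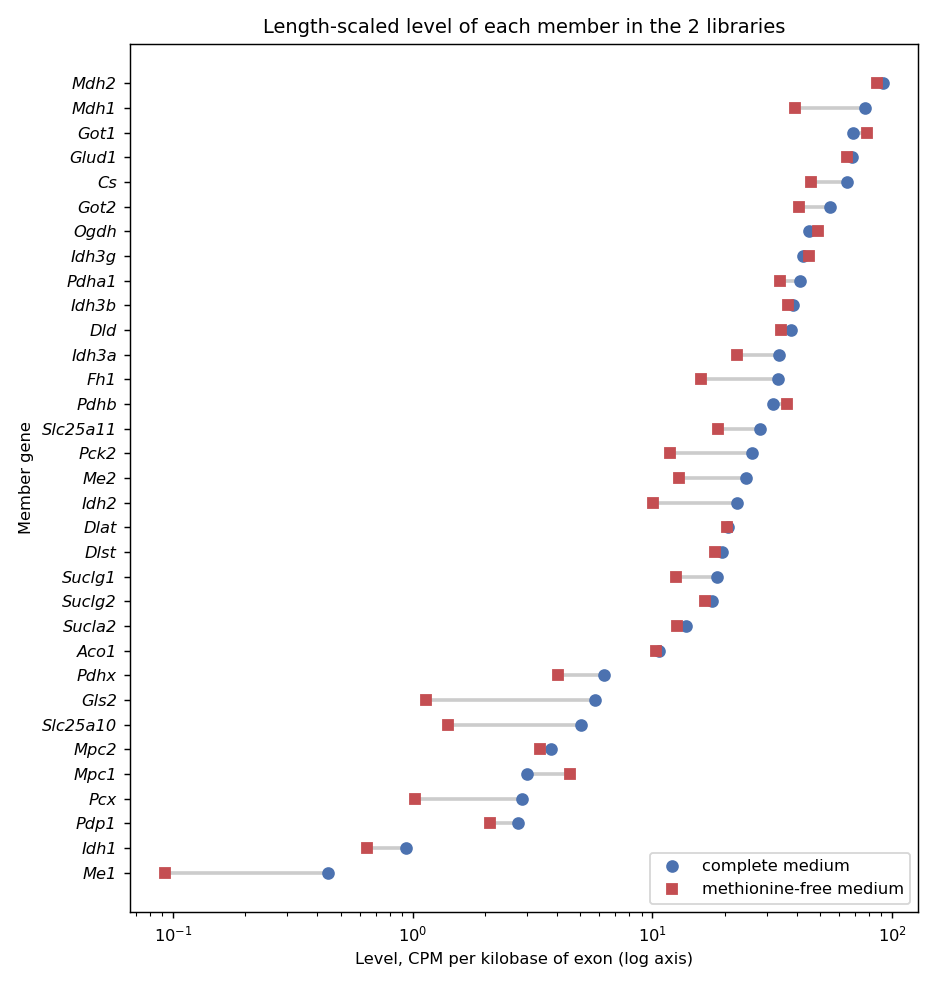
Level of each member in CPM per kilobase of exon (log axis) in complete medium (blue circles) and methionine-free medium (red squares), 1 library each, sorted by the complete-medium level. Mdh1 stands apart from its neighbours at the top by its gap, 76.8 against 39.2, and Gls2, Slc25a10, Pcx and Me1 show the widest gaps at the bottom.

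At the point of pyruvate entry, the carrier genes lay on opposite sides of 1, and neither was past 1.5-fold. Mpc2 had 407 counts with methionine and 487 without it, 27.7 and 24.9 CPM, a ratio of 0.897 (0.785 to 1.03). Mpc1 had 92 and 184 counts, 6.26 and 9.39 CPM, a ratio of 1.499 (1.16 to 1.95). The Mpc1 to Mpc2 ratio was 1.67 times that in complete medium (1.26 to 2.22). The values of Mpc1 are uncertain because a processed pseudogene on chromosome 12, Mpc1-ps, matches it at 99.7% over 330 bases and held more counts than Mpc1 itself, 198 and 242. Summed over both, the counts were 290 and 426, and the ratio of 1.10 had an interval that held 1 (0.946 to 1.28).

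The pyruvate dehydrogenase complex consists of an E1 part encoded by Pdha1 and Pdhb, the E2 core Dlat, the E3 subunit Dld, shared with the 2-oxoglutarate dehydrogenase complex, and Pdhx, which tethers E3 to the core. Pdhx (ENSMUSG00000010914, chromosome 2, 103021075 to 103073513, minus strand) was the only member of the group past 1.5-fold. It had 363 and 312 counts, 24.7 CPM with methionine and 15.9 CPM without it, and was 1.55-fold lower (1.33 to 1.81). The E1 subunits lay on opposite sides of 1: Pdha1 went from 155 to 127 CPM on 2272 and 2482 counts, 1.22-fold lower (1.15 to 1.29), and Pdhb from 122 to 141 CPM on 1798 and 2759 counts, 1.15-fold higher (1.08 to 1.22). The Pdha1 to Pdhb ratio was thus 0.712 times that in complete medium (0.656 to 0.773). Dlat was at 101 and 100.1 CPM, with an interval that held 1, and Dld at 139 and 127 CPM. Pdp1, which encodes the phosphatase that switches the complex on, had 182 and 185 counts and was 1.31-fold lower (1.06 to 1.62). Pdha1 shares 603 exon bases with Map3k15 on the opposite strand, which held 67 and 52 counts.

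Of the kinases that switch the complex off, which are not members, Pdk1 was at 258 CPM with methionine and 172 CPM without it, 1.502-fold lower (1.43 to 1.57). Pdk3 was at 67.9 and 33.4 CPM, 2.03-fold lower (1.84 to 2.25). Pdk2 went the other way on few counts, 25 and 94, a ratio of 2.82 (1.80 to 4.57). Pdk4 had no count in either library.

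Within the cycle itself, the gene with the greatest difference was Fh1, which encodes fumarase, the enzyme that hydrates fumarate to malate. Fh1 (ENSMUSG00000026526, chromosome 1, 175600374 to 175625635, minus strand) had 1670 counts with methionine and 1056 without it, 114 and 53.9 CPM, and was 2.11-fold lower (1.95 to 2.28). Its neighbour in the cycle, Mdh2, which encodes the mitochondrial malate dehydrogenase, had 4772 and 6051 counts, 325 and 309 CPM, 1.05-fold lower (1.01 to 1.09). The Fh1 to Mdh2 ratio was 0.499 times that in complete medium (0.458 to 0.543). Cs, the citrate synthase gene of the first step, went from 373 to 265 CPM on 5482 and 5188 counts, 1.41-fold lower (1.36 to 1.46), short of the threshold.

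The subunits of isocitrate dehydrogenase 3, the NAD-linked enzyme of the cycle, did not lie together. Idh3a, which encodes the catalytic alpha subunit, went from 171 to 115 CPM on 2516 and 2249 counts, 1.49-fold lower (1.41 to 1.58). Idh3b was at 132 and 126 CPM and Idh3g at 115 and 122 CPM, and the intervals of both held 1. The ratio of Idh3a to Idh3b was 0.702 times that in complete medium (0.647 to 0.763), and that of Idh3a to Idh3g 0.633 times (0.582 to 0.689). Idh3b shares 5 exon bases with Nop56 on the opposite strand, which held 9010 and 12714 counts.

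In succinyl-CoA ligase too, the alpha subunit gene had the greatest difference. Suclg1 encodes the alpha subunit used by both forms of the enzyme and went from 85.7 to 57.7 CPM on 1258 and 1130 counts, 1.49-fold lower (1.37 to 1.61). Sucla2, the beta subunit of the ATP-forming enzyme, was at 55.1 and 50.5 CPM, and Suclg2, that of the GTP-forming enzyme, at 81.8 and 76.7 CPM; both intervals held 1. The ratio of Sucla2 to Suclg2 was 0.979 times that in complete medium (0.868 to 1.10), while Suclg1 to Sucla2 was 0.734 times (0.649 to 0.830). The Suclg2 pseudogene Gm15163 held 84 and 95 counts, and adding them left the ratio at 0.932 (0.865 to 1.003).

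The genes of the 2-oxoglutarate dehydrogenase complex lay close to 1, on opposite sides of it. Ogdh, which encodes its E1 part, went from 246 to 268 CPM on 3617 and 5242 counts, 1.09-fold higher (1.04 to 1.13). Dlst, its E2 core, was at 187 and 174 CPM on 2745 and 3416 counts, a ratio of 0.933 (0.887 to 0.981).

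Succinate dehydrogenase, which oxidizes succinate to fumarate, lies outside the members. Of its subunits, Sdhb, which carries the iron-sulfur clusters, was at 132 and 79.5 CPM, 1.66-fold lower (1.55 to 1.78), while Sdha was at 326 and 319 CPM, Sdhc at 84.9 and 82.4 CPM and Sdhd at 119.5 and 101 CPM. The Sdhb to Sdha ratio was 0.614 times that in complete medium (0.569 to 0.663).

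**Figure D3:**
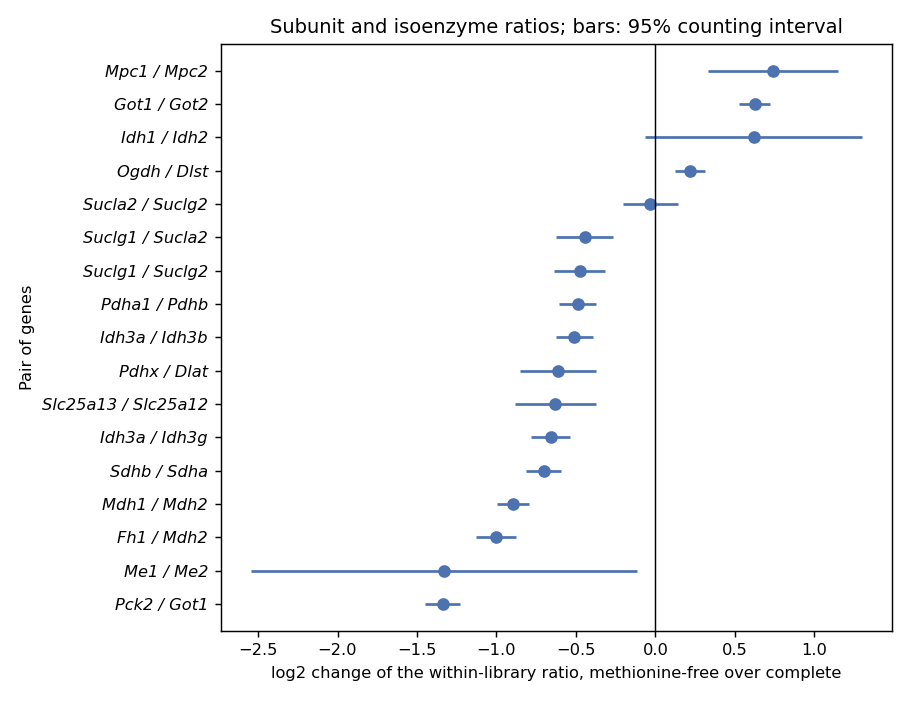
Change of the ratio between 2 genes of the same library (x axis, log2 of the methionine-free ratio over the complete-medium ratio), with lines for the 95% counting interval; library scaling cancels out of these ratios. Sucla2 to Suclg2 lies at 0 within its interval, and Pck2 to Got1, whose ratio was 0.395 times that in complete medium, lies farthest from it.

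The isocitrate dehydrogenases outside the cycle make NADPH, IDH2 in mitochondria and IDH1 in the cytosol. Idh2 (ENSMUSG00000030541, chromosome 7, 80094846 to 80115392, minus strand) had 853 counts with methionine and 512 without it, 58.1 and 26.1 CPM, and was 2.22-fold lower (1.99 to 2.485). Idh1 had 38 and 35 counts, 2.59 and 1.79 CPM, and its ratio of 0.690 had an interval that held 1 (0.423 to 1.12), which these counts cannot tell from no difference. Per kilobase of exon, Idh2 was 24.0 times as high as Idh1 in complete medium and 15.7 times without methionine, folds that these counts cannot tell apart, since the Idh1 to Idh2 ratio was 1.53 times that in complete medium with an interval that held 1 (0.957 to 2.46). Aco1, the cytosolic aconitase that doubles as an iron-responsive RNA-binding protein, was at 48.0 and 46.4 CPM on 705 and 909 counts, a ratio of 0.966 (0.875 to 1.07).

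At the junction of pyruvate, malate and oxaloacetate, all 4 genes were past 1.5-fold on the lower side, by different sizes. Pcx encodes pyruvate carboxylase, which refills the cycle by making oxaloacetate from pyruvate. Pcx (ENSMUSG00000024892, chromosome 19, 4510472 to 4621752, plus strand) had 199 counts with methionine and 95 without it, 13.55 and 4.85 CPM, and was 2.79-fold lower (2.18 to 3.61). Pck2 encodes the mitochondrial phosphoenolpyruvate carboxykinase, which draws oxaloacetate out of the cycle. Pck2 (ENSMUSG00000040618, chromosome 14, 55540266 to 55551242, plus strand) had 2988 and 1806 counts, 203 and 92.2 CPM, and was 2.21-fold lower (2.08 to 2.34). Pck1, the cytosolic form, had 0 counts and 1 count.

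The malic enzymes, which convert malate to pyruvate, were both lower. Me2, the mitochondrial NAD-linked form, had 2606 counts with methionine and 1835 without it, 177 and 93.65 CPM, and was 1.89-fold lower (1.78 to 2.01). Me1, the cytosolic NADP-linked form (ENSMUSG00000032418, chromosome 9, 86581371 to 86695953, minus strand), was near the limit of detection with 25 and 7 counts, 1.70 and 0.357 CPM, and was 4.76-fold lower with a wide interval (2.0035 to 13.0). Me3, the other mitochondrial form, had no count in either library. The members of this group thus ranged from 1.89-fold to 4.76-fold lower, and the 3 well-counted genes from 1.89-fold to 2.79-fold.

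Pck2 and Got1 share a feature upstream. Both have been described as targets of ATF4, the transcription factor of the amino acid stress response, and both hold 1 match to TGATGNAA, the core of the amino acid response element, a little over 100 bases before the annotated start. The 250 bases before the start, from RefSeq on GRCm38.p6, are printed 5′ to 3′ on the strand of each gene, with the match in capitals. The match is on the opposite strand in both, so it reads as the reverse complement of the motif. Pck2 lies at chr14:55540016-55540265 on the plus strand and Got1 at chr19:43524606-43524855 on the minus strand.
Pck2: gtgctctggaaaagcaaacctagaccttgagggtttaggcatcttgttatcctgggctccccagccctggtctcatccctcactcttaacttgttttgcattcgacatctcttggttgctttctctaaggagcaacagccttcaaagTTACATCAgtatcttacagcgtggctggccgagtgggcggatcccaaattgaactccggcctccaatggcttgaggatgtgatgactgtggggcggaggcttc
Got1: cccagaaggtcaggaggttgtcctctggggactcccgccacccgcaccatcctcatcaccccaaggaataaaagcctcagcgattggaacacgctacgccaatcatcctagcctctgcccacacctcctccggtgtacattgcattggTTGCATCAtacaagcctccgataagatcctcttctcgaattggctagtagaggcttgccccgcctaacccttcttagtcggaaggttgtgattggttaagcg

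The match begins 103 bases before the start of Pck2 and 102 bases before that of Got1. The values of these genes lay on opposite sides: Pck2 was 2.21-fold lower without methionine, while Got1 was 1.15-fold higher, so their ratio was 0.395 times that in complete medium (0.366 to 0.427). Promoter windows of 250 bases before to 50 after a start were found for 29 of the 33 members, at 38 starts. TGATGNAA, searched on both strands, was in 2 of these 29 genes, 6.90%, beside 4.51% of all 27025 genes with a window, and in 2 of the 38 windows beside 3.97% of all 32851 windows. CACGTG, the E-box, was found in Ogdh and Pcx, 6.90% of the member genes beside 8.09% of all genes. By window it was in 4 of the 38, at more than 1 start of Ogdh, and in 7.15% of all windows. GCGCATGC, the core of the NRF1 motif, was found in Glud1 and Ogdh, 6.90% of the member genes beside 3.05% of all genes. By window it was in 3 of the 38, with the same Ogdh site in more than 1 of them, and in 2.71% of all windows. TNAAGGTCA, the core bound by ERR receptors, was in none of the member windows and in 1.28% of all windows. No match of one motif overlapped a match of another, and windows of neighbouring starts of a gene overlap. These matches describe letters in the windows and say nothing of binding.

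Glutamine enters the cycle through glutaminase and then as 2-oxoglutarate. Gls2, which encodes the liver-type glutaminase, had the greatest difference of all members. Gls2 (ENSMUSG00000044005, chromosome 10, 128194457 to 128210004, plus strand) had 293 counts with methionine and 77 without it, 19.95 and 3.93 CPM, and was 5.08-fold lower (3.94 to 6.61). It shares 97 exon bases with Spryd4 on the opposite strand, whose counts went from 198 to 566, and no source used here says whether the counting was stranded. Glud1, the glutamate dehydrogenase gene, lay close to 1, with 4209 and 5363 counts, 287 and 274 CPM, 1.05-fold lower (1.01 to 1.09).

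The malate-aspartate shuttle moves the electrons of cytosolic NADH into mitochondria with a malate dehydrogenase and an aspartate aminotransferase on each side of the membrane. Mdh1 (ENSMUSG00000020321, chromosome 11, 21556787 to 21572367, minus strand), the cytosolic dehydrogenase gene, had 2894 counts with methionine and 1971 without it, 197 and 101 CPM, and was 1.96-fold lower (1.85 to 2.08). It shares 52 exon bases with Wdpcp on the opposite strand, which held 18 and 12 counts. Its mitochondrial partner Mdh2 lay close to 1, and per kilobase of exon Mdh2 was 1.19 times as high as Mdh1 in complete medium and 2.21 times without methionine. The aminotransferases showed the opposite arrangement. Got1, the cytosolic form, had 2568 and 3925 counts, 175 and 200.3 CPM, 1.15-fold higher (1.09 to 1.20). Got2, the mitochondrial form, had 3883 and 3853 counts, 264 and 197 CPM, 1.34-fold lower (1.29 to 1.41). The Got1 to Got2 ratio was 1.54 times that in complete medium (1.44 to 1.65), and the Mdh1 to Mdh2 ratio 0.537 times (0.501 to 0.575). The cytosolic genes thus lay on opposite sides of 1, while both mitochondrial genes were below it, Mdh2 by little. The 5 cytosolic members, Aco1, Idh1, Mdh1, Me1 and Got1, had a median log2 difference of -0.53, with 2 of 5 at least 1.5-fold lower. The 28 others had a median of -0.34, with 8 of 28 lower, beside 18.0% of all genes. The cytosolic median is the value of Idh1, whose interval held 1, and Me1, on few counts, is 1 of the 2 lower genes. Taken as sums, the cytosolic members had a ratio of 0.824 and the others 0.813.

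Of the mitochondrial carriers among the members, Slc25a10, the dicarboxylate carrier gene, followed Gls2 and Me1 in size of difference. Slc25a10 (ENSMUSG00000025792, chromosome 11, 120491840 to 120499187, plus strand) had 256 counts with methionine and 95 without it, 17.4 and 4.85 CPM, and was 3.60-fold lower (2.83 to 4.60). It shares 228 exon bases with the antisense gene Gm11788, which held 2 and 6 counts. Slc25a11, which exchanges malate for 2-oxoglutarate in the shuttle, had 873 and 783 counts, 59.4 and 40.0 CPM, and was 1.49-fold lower (1.35 to 1.64). It shares 189 exon bases with Rnf167 on the opposite strand, which held 665 and 1027 counts.

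Among 28 further genes of these pathways, 24 averaged 10 counts or more, of which 6 were at least 1.5-fold lower and 1 at least 1.5-fold higher, with a median log2 difference of -0.26. The lower genes were Slc25a1, Pdk3, Gpt2, Slc25a13, Sdhb and Pdk1, and the higher gene was Pdk2. Slc25a1, the citrate carrier gene, was at 70.3 and 26.4 CPM, 2.66-fold lower (2.39 to 2.96). Gpt2, the mitochondrial alanine aminotransferase gene, was at 106 and 57.5 CPM, 1.84-fold lower (1.71 to 1.99). The aspartate-glutamate carriers of the shuttle were at 77.6 and 70.6 CPM for Slc25a12 and at 23.7 and 13.9 CPM for Slc25a13, which was 1.70-fold lower (1.45 to 2.0001). At 6 of 24, the share of lower genes in this list lay between that of the members, 30.3%, and that of all genes, 18.0%.

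The members were set beside lists of related metabolism. Of 19 glycolysis identifiers, with Aldoa under 2 of them, 14 were at least 1.5-fold lower, with a median log2 difference of -0.67 against -0.39 for the members. Of 26 nuclear genes of complex IV, cytochrome c and ATP synthase, 4 were lower and none higher, with a median of -0.19. Of 17 fatty acid oxidation genes, 3 were lower and 2 higher, Etfdh and Slc25a20, with a median of -0.20. The share of lower genes was 73.7% for glycolysis, 15.4% for the respiratory list and 17.65% for fatty acid oxidation, beside 18.0% of all genes. For the respiratory and fatty acid oxidation lists it was thus not above that of all genes. The share of higher genes for fatty acid oxidation was 11.8%, beside 15.7% of all genes. Over the 25 members that share no exon bases with another counted gene, the median was -0.16. Shared exon bases were sought for the members alone, so this value and the medians of the other lists are over unlike sets. The median of the members thus depends on which members are kept, and an order of the lists under the same filter was not obtained. The members ran from -2.34 for Gls2 to 0.58 for Mpc1, which summed with its pseudogene was at 0.14. The respiratory list ran from -0.88 to 0.16, the fatty acid oxidation list from -0.73 to 0.76 and the glycolysis list from -2.55 to -0.31. The lowest glycolysis value belonged to the lesser Aldoa identifier, on 24 and 5 counts, while the main one was at -0.36. Next lowest was Aldoc at -2.27, on 436 and 120 counts. The further genes of the same pathways ran from -1.41 to 1.48, so a wide spread was not particular to the members. No test of these differences was possible with 1 library per medium.

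**Figure D4:**
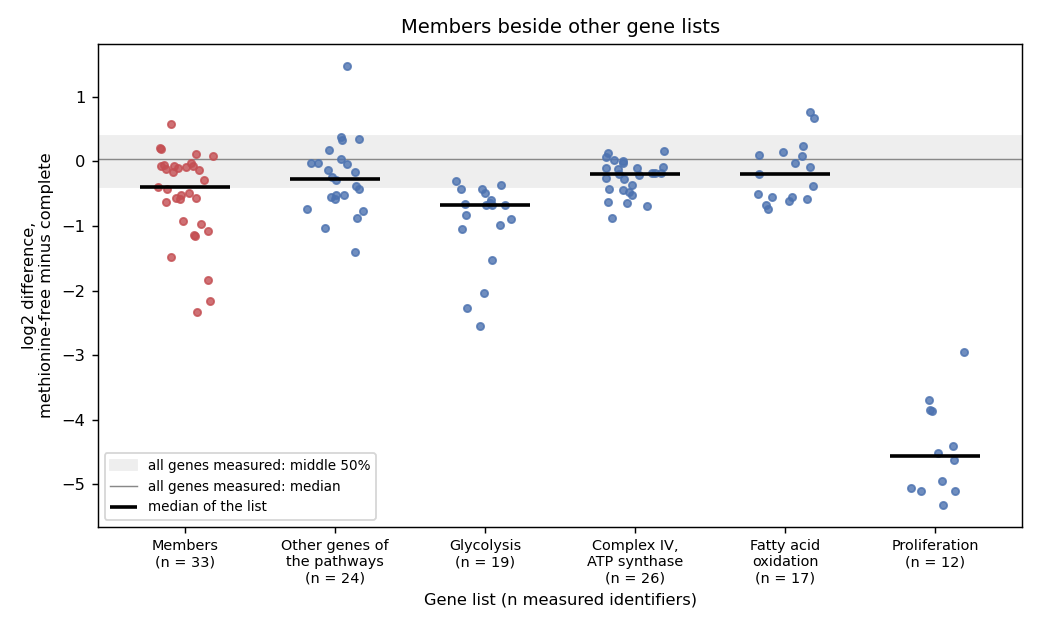
Log2 difference (methionine-free minus complete medium) of each measured gene of 6 lists; black bars are list medians, the grey line is the median and the grey band the middle 50% of all 13041 genes. The members (red) reach from 0.58 down to -2.34, and all 12 proliferation genes lie below every member.

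Depth bore on the members unequally. One read counted for 0.0681 CPM in the complete-medium library and for 0.0510 CPM in the other, so the interval was narrow for Cs or Mdh2, whereas for Me1 it ran from 2.0035-fold to 13.0-fold. Members under 100 counts on average were Me1 and Idh1. Leaving both out, 9 of 31 members were at least 1.5-fold lower and the median log2 difference was -0.29, with 0.05 for all 9522 genes of that depth, of which 13.7% were at least 1.5-fold lower. The copies of Glud1, Got2, Me1 and Pdhb elsewhere in the genome held at most 31 counts each. For Me1 even few counts mattered. Summed with its pseudogene Gm7329 it had 25 and 9 counts and a ratio of 0.270 (0.111 to 0.598), against 0.210 alone.

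**Figure D5:**
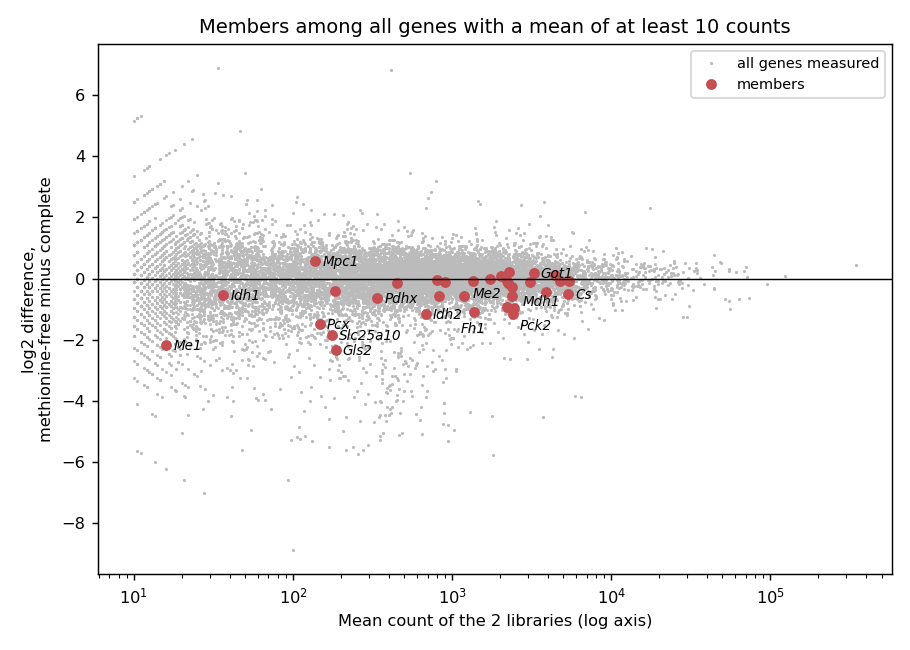
Log2 difference (y axis) against the mean count of the 2 libraries (x axis, log) for all 13041 genes averaging 10 counts or more (grey) and the 33 members (red), 1 library per medium. Fh1, Mdh1, Me2 and Pck2 sit at the lower side among well-counted genes, and Me1 and Idh1 lie where counting noise spreads the grey cloud.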

How the data were processed

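The authors deposited raw counts per gene as whole numbers. The submitters' processing notes name the build mm10; aligner, counter, annotation release and use of strand are not given in these sources. Per the labels' protocols, TRIzol RNA was made into libraries with a whole-RNA or an mRNA kit, and which kit made which library is not stated. Of 54532 identifiers, 54495 matched GENCODE M21 (GRCm38); protein-coding genes held 97.6% and 97.5% of counts. The column with a misspelt form of control was taken as complete medium and the column beginning with Met as methionine-free medium, from titles and descriptions. The names of these columns end in different numbers, and what the numbers stand for is not given in these sources.

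Counts were scaled over the whole table with TMM factors (edgeR 4.0.16, R 4.3.3), 1.003 and 0.997. Log2 differences used a prior count of 0.5, over genes averaging 10 counts or more. Ratios leave out the prior count. Their 95% intervals are exact conditional binomial intervals (scipy 1.17.1). Intervals of ratios between 2 genes use the log-scale counting error of the 4 counts. Near-identical copies were sought with BLAST 2.17.0 among GENCODE transcripts (at least 95% identity over at least 200 bases). The step that gives ratios and their counting intervals was tested on simulated counts with counting error only and without TMM factors. The other steps were not tested in this way. No test was possible with a single library per medium. Members, lists and pairs were chosen with earlier results of these data known; the pairs with Sdha, Slc25a12, Mdh2 to Fh1 and Got1 to Pck2 were added after values were seen. Named were members past 1.5-fold, the 2 largest per role, isoenzyme pairs, complex subunits, other pathway genes past 1.5-fold, and fixed ones, some of which are not reported here. Alternatives were DESeq2 1.42.0 factors, library totals, upper-quartile factors, other minimum counts, a prior count of 2, and leaving out overlapping members or, added after seeing the data, those with copies or non-coding genes.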

Additional observations from a re-analysis of the deposited data

How the results depend on the processing

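Of the 9 alternatives, only the 3 other scalings and the prior count of 2 could change the value of a single member. All 132 such values stayed within the counting interval of the first value, and scaling moved them by about 0.01 at most on the log2 scale. The number of members at least 1.5-fold higher went from 0 to 1 with upper-quartile factors, through Mpc1. The median log2 difference of the members was -0.29 over members averaging 100 counts or more, -0.16 without members that share exon bases with another counted gene, and -0.50 without the 6 members with a near-identical copy, against -0.39. It stayed between -0.40 and -0.38 under the other scalings and the prior count of 2. Members at least 1.5-fold lower numbered 10 or 11 of 33 where all were kept, and members at least 2-fold lower 7 of 33. Where members were left out, these numbers were 9 and 6 of 31 by depth, 9 and 6 of 27 without copies, and 7 and 5 of 25 without shared exon bases. With no minimum count, 29.9% of all genes were at least 1.5-fold lower, and at 2-fold 23.1% were lower and 15.8% higher; at a mean of 100 or more these 2-fold shares were 6.05% and 2.77%. No paired analysis was possible because there is 1 library per medium, and for the same reason no library could be left out. Counting depth limits Me1 and Idh1 most.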
